A study of Mus musculus with 43 samples.

Results

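The clustered protocadherins are cell adhesion proteins of the cadherin superfamily whose genes lie side by side in an alpha, a beta and a gamma cluster on mouse chromosome 18. All protein-coding rows of the count table with a clustered *Pcdha*, *Pcdhb* or *Pcdhg* symbol were taken, which gave 57 of 54532 genes: 14 of the alpha, 22 of the beta and 21 of the gamma cluster. The family was chosen by measured values of these same libraries, since the study lists members of it among the differentially expressed genes (DEGs) for short-chain fatty acids (SCFA) over control in males at 7 days post-lesion (dpl) and in females at 14 dpl. Values for those contrasts, for the interactions that hold them and for the difference between the 2 runs of columns described further on are therefore given as a description: counts of calls are printed beside the share over all genes, but no member's p-value, and nothing is read from those counts.

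In the nervous system these proteins act in the recognition of a cell's own branches. Each alpha and gamma gene is made of a large variable exon with its own promoter, which codes for the extracellular cadherin repeats, the membrane span and a short inner stretch, and of small constant exons that all genes of the cluster share. Beta genes have only the large exon. Binding of CTCF and cohesin at promoters and at distal enhancers brings a promoter into use, and the choice among the alternate promoters is stochastic from neuron to neuron, while the C-type genes at the end of the alpha and gamma clusters are used more uniformly and are less dependent on that choice. In the retina, gamma protocadherins are known for the self-avoidance of starburst amacrine cell dendrites and for the survival of retinal neurons.

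Bulk RNA was sequenced from 43 libraries of retina, each a pool of 2 retinas from different C57BL/6J mice that had received laser lesions (laser-induced choroidal neovascularization, CNV) at 9 weeks of age. The 12 groups were females (F) and males (M) at 3, 7 and 14 dpl, either with SCFA in the drinking water or without, and the controls carried the laser lesion too, so no group was free of a lesion. SCFA was given from 3 weeks before the lesion until tissue was collected, so exposure was longer than the days after the lesion. The SCFA drinking water held sodium salts of acetate (67.5 mM), propionate (40 mM) and butyrate (25 mM), of which the weights per litre given beside the molarities of propionate and butyrate do not match these, so that both doses are uncertain. Groups were taken from the titles, because the treatment field of the labels reads control for every sample. In bulk RNA, fewer cells that use a gene and less RNA per cell cannot be told apart.

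Library totals ran from 14826957 to 21507527 counts (median 17683615), and 3 counts, taken as the floor, correspond to 0.134 to 0.246 CPM (counts per 1000000 of the library size after TMM scaling), a limit that covers counting error only. Photoreceptor markers were high in every library (summed rod markers between 47876 and 99545 CPM), and no gene of the 13 cell type marker lists stayed at or under the floor in all libraries. The library labelled female control at 7 dpl replicate 2 held 4.20 to 16 CPM of *Ddx3y*, *Eif2s3y*, *Kdm5d* and *Uty*, genes of chromosome Y that were at 0 in the other female libraries, and it was left out of the fits. The columns of the deposited table pass through the groups once for 31 libraries and start over for another 12, and these are called the first and the last run of columns; what distinguishes the runs is not given in the sources used here. Mitochondrial mRNAs (13 genes) took a median of 6.78% of the counts in the first run (4.71% to 14.75%) and 3.78% in the last (2.50% to 4.57%), without overlap.

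On GRCm38, the alpha genes span positions 36930184 to 37187661 of chromosome 18, the beta genes 37264938 to 37524479 and the gamma genes 37661793 to 37841873, all on the plus strand. *Pcdhgb8*, annotated as a polymorphic pseudogene, is not a member. The symbol *Pcdha11* is carried by 2 gene identifiers, of which ENSMUSG00000007440 starts 117 bases from the *Pcdha10* of RefSeq and ENSMUSG00000102206 starts 146 bases from its *Pcdha11*, so both are named here with their identifier. Reads of the constant exons could not be assigned to 1 gene: of 1228 genes of the table without an exon base of their own, 1164 had 0 counts in every library, and *Pcdhga10*, the member without such a base, had at most 4 counts in any library. The counts of the alpha and gamma members are therefore read as counts of their variable exons, between 404 bases in *Pcdha4* and 4614 in *Pcdhgb5* where there are any. Whether reads were counted by strand is not given in the sources used here, so reads of antisense transcripts cannot be told apart from those of the members.

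The beta cluster was the most abundant and the alpha cluster close to the limit of detection. Of the 57 members, 52 passed the filter on low counts, 11 alpha, 21 beta and 20 gamma, and 41 had more than 3 counts in all 43 libraries, 2 of them alpha, 20 beta and 19 gamma. *Pcdha4*, *Pcdha8*, the *Pcdha11* with identifier ENSMUSG00000102206, *Pcdhb1* and *Pcdhga10* did not pass. In the first run, beta members made up 68.4% of the family's CPM, gamma members 28.6% and alpha members 3.03%. In the last run these shares were 57.0%, 36.0% and 6.95%.

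Per kilobase (kb) of exon that no other gene shares, levels in the first run ranged from 0.00727 CPM per kb for *Pcdhb1* to 5.78 ± 1.82 (SD, n = 31) for *Pcdhb9*. In the beta cluster, *Pcdhb9* was followed by *Pcdhb17* at 4.95 ± 1.44 and *Pcdhb20* at 4.85 ± 0.471 CPM per kb (SD, n = 31). Neighbours in this order differed by less than the larger of their SDs. *Pcdhb20* varied little, with 13.5 to 19.98 CPM in the first run and 16.3 to 19.5 CPM in the last.

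In the gamma cluster, the A-type *Pcdhga4* was highest at 5.01 ± 1.26 CPM per kb, ahead of the C-type *Pcdhgc3* at 2.84 ± 1.09 and the B-type *Pcdhgb2* at 2.35 ± 0.637 (SD, n = 31), of which the latter pair overlapped. *Pcdhgc5*, also C-type, was the lowest gamma member that could be scaled, at 0.215 ± 0.0833 CPM per kb. In the alpha cluster the C-type *Pcdhac2* led with 0.641 ± 0.312 CPM per kb, followed by *Pcdha3* (0.374 ± 0.135) and *Pcdha12* (0.360 ± 0.195), whose ranges overlapped, and *Pcdha1* was lowest at 0.0658 ± 0.0625 (SD, n = 31). *Pcdhac1*, the other alpha C-type isoform, stood at 0.124 ± 0.0725 CPM per kb. The alpha median was 0.195, the beta median 1.57 and the gamma median 1.39 CPM per kb in the first run.

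**Figure D1:**
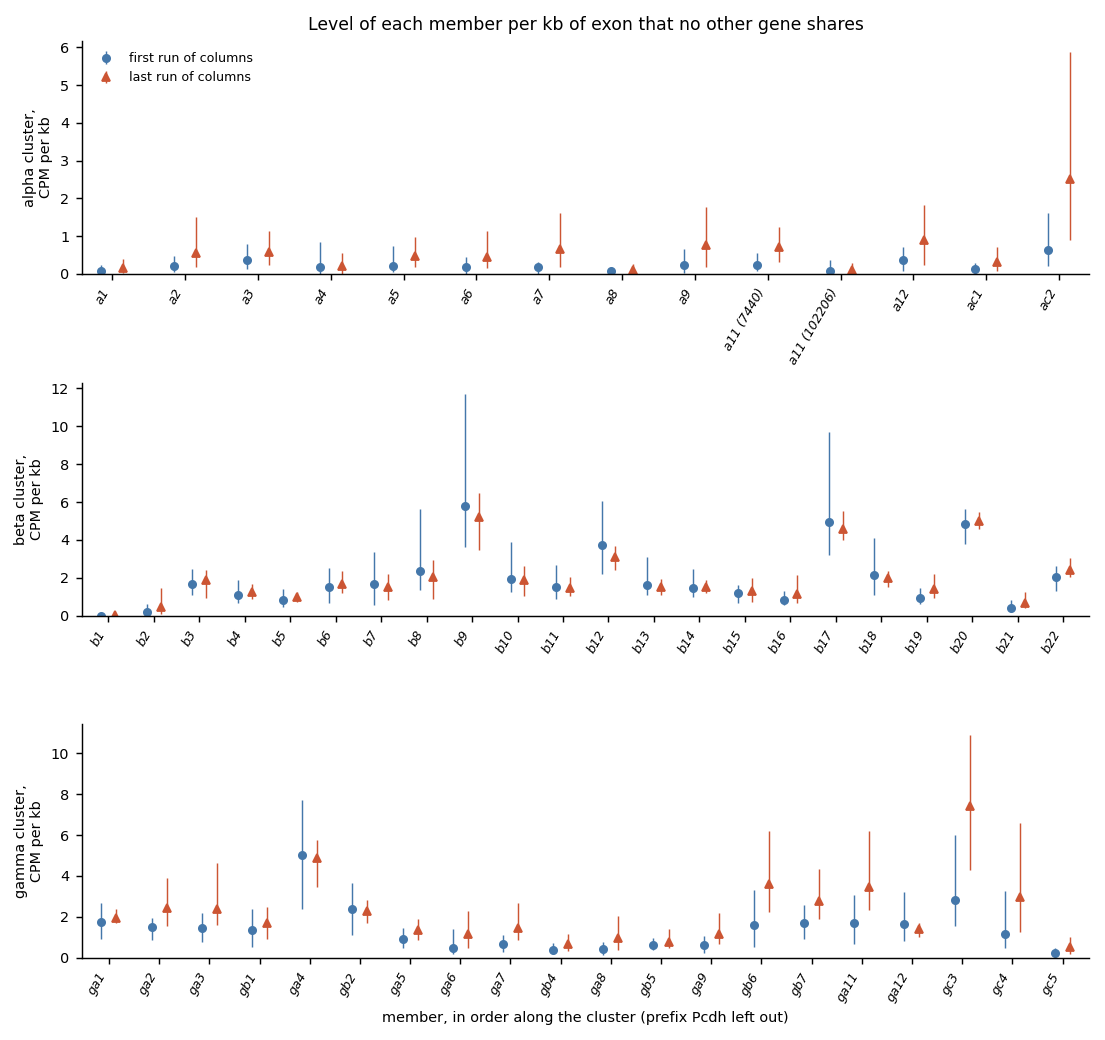
Level of each member in CPM per kb of unshared exon (vertical axis), in order along the alpha, beta and gamma clusters (horizontal axis); points are means of the 31 libraries of the first run (circles) and the 12 of the last run (triangles), and bars span the lowest to the highest library. *Pcdhb9*, *Pcdhb17*, *Pcdhb20* and *Pcdhga4* stand highest in the first run, *Pcdhgc3* reaches 7.40 CPM per kb in the last run, and all alpha members lie below 1 CPM per kb in both except *Pcdhac2*.

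Summed over each cluster, the alpha and gamma levels were higher in the last run of columns. The alpha sum had a median of 6.82 CPM in the first run (4.91 to 13.4, n = 31) and 16.7 CPM in the last (8.66 to 46.8, n = 12), a ratio of 2.45, and 8 of the 12 last-run libraries lay above all 31 of the first. The gamma sum had a median of 71.2 CPM (49.1 to 87.3) against 103 CPM (84.1 to 175), a ratio of 1.45, with 9 of 12 above all of the first run. The beta sum overlapped throughout, at 156 CPM (129 to 265) against 174 CPM (143 to 203), a ratio of 1.11. These sums were not tested, since the members were chosen with results of these libraries known.

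Within the first run, the alpha and gamma sums of the groups overlapped broadly. The alpha sum was lowest in a female control library at 3 dpl (4.91 CPM) and highest in a male control library at 14 dpl (13.4 CPM). The 3 male controls at 14 dpl, at 9.08, 10.4 and 13.4 CPM, stood above the 3 male controls at 7 dpl, at 6.69, 6.92 and 7.51 CPM. The gamma sum ranged from 49.1 to 83.2 CPM in the 15 control libraries and from 53.1 to 87.3 CPM in the 16 SCFA libraries. The beta sum ranged from 129 to 168 CPM (median 143) in the controls and from 143 to 265 CPM (median 184) under SCFA, where 9 of the 16 libraries lay above every control. Some other lists were higher under SCFA too. Among them, 22 other self-recognition and adhesion molecules summed to 930 to 1118 CPM under SCFA and to 820 to 921 CPM in the controls, without overlap. The 16 intracellular partners of the family had medians of 1311 and 1156 CPM and 7 bipolar cell markers medians of 791 and 673 CPM, both with overlap. Other lists had lower medians under SCFA, all with overlap. Among these were the non-clustered protocadherins (1143 against 1268 CPM), ganglion cell markers (901 against 1089 CPM) and microglia markers (62.3 against 74.7 CPM). The part of these lists in the beta values was not tested.

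Within the last run, the groups did not overlap by treatment in any cluster except beta. Its 4 control libraries, 2 from females at 14 dpl (46.8 and 26.6 CPM) and 2 from males at 3 dpl (31.5 and 34.9 CPM), had the highest alpha sums of all 43. The 8 SCFA libraries of that run ranged from 8.66 CPM in a female at 7 dpl to 20.03 CPM in a male at 3 dpl. The gamma sum ranged from 113 to 175 CPM in these controls and from 84.1 to 106 CPM under SCFA. Mitochondrial mRNAs likewise did not overlap, at 2.50% to 3.24% of the counts in the 4 controls and 3.73% to 4.57% in the 8 SCFA libraries, and the part of this difference in the protocadherin sums was not tested. The controls of this run are females at 14 dpl and males at 3 dpl only, whereas the SCFA libraries come from 5 groups.

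**Figure D2:**
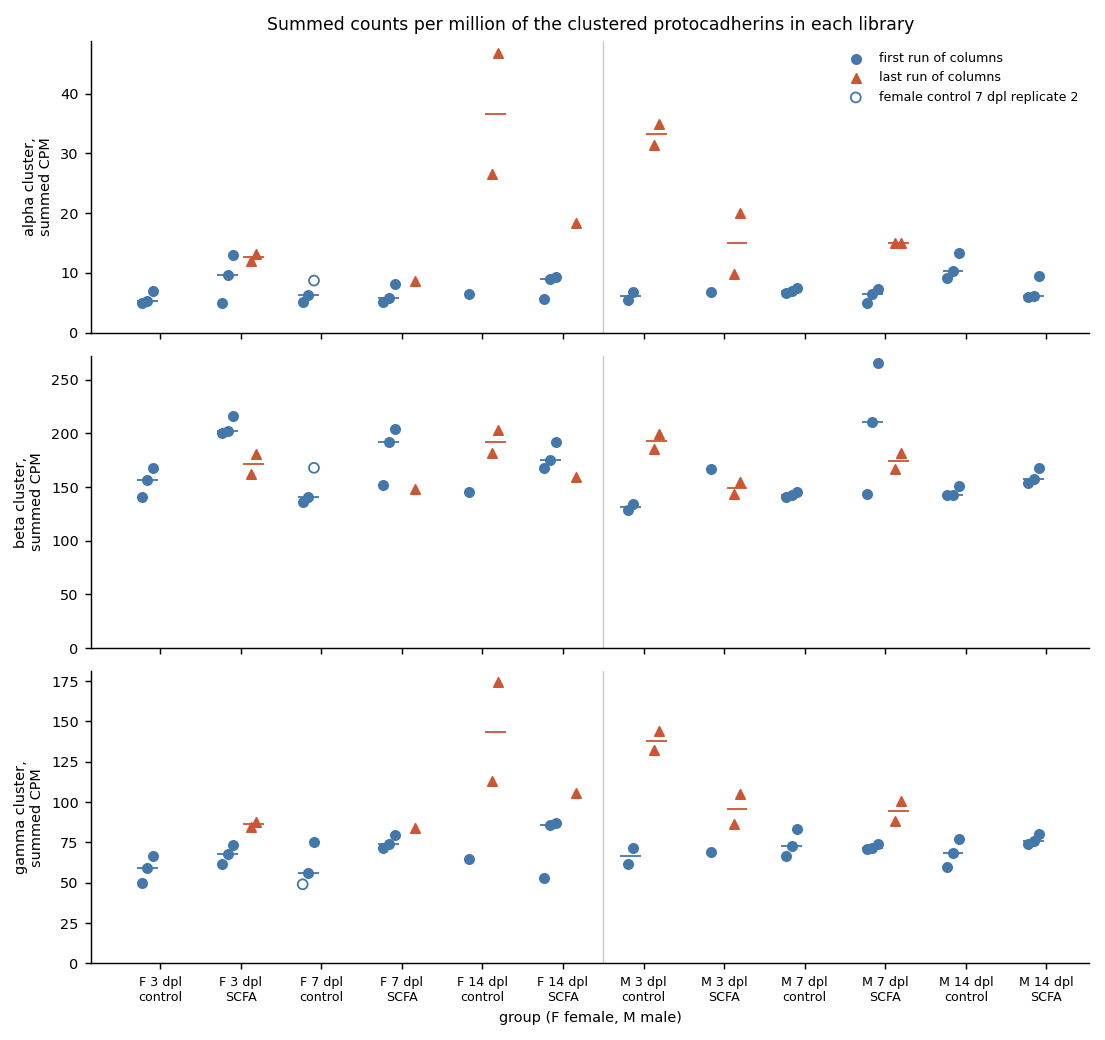
Summed CPM of the alpha, beta and gamma members (vertical axes, each starting at 0) in each of the 43 libraries by group (horizontal axis); circles are the first run of columns, triangles the last, horizontal lines group medians within run, and the open circle is the female control library with transcripts of chromosome Y. Alpha sums of the first run lie between 4.91 and 13.4 CPM in every group, while the control libraries of the last run lie between 26.6 and 46.8 CPM.

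The fit of 42 libraries had group and run as terms (edgeR), of which run is 1 shift shared by all groups. In the controls, the alpha sum had a median of 6.89 CPM in the first run and 33.2 CPM in the last. Under SCFA the medians were 6.61 and 14.1 CPM. Whether the shift is the same in all groups was not tested. A gene was called where its adjusted p was under 0.1 and its absolute log2 fold change over 1. By this rule, 14 of the 52 members tested were called, all higher in the last run, where 5.1% of the 18628 genes tested were called and 2.0% were called higher. The 14 were 9 of 11 alpha members, 0 of 21 beta members and 5 of 20 gamma members. The median log2 fold change was 1.25 for alpha, 0.07 for beta, 0.79 for gamma and 0.00 for all genes tested. This difference was known when the members were chosen, so nothing is read from the counts.

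Among the C-type isoforms, *Pcdhac2* had a median of 1.69 CPM in the first run (0.640 to 4.92) and 6.65 CPM in the last (2.69 to 17.8), a log2 fold change of 1.86 ± 0.27 (SE) in the fit, the highest in the family. *Pcdhgc3* had a median of 4.68 CPM (2.81 to 10.9) against 13.3 CPM (7.84 to 19.8), a log2 fold change of 1.34 ± 0.19. *Pcdhgc4* had 3.27 CPM (1.66 to 11.3) against 8.57 CPM (4.39 to 22.9), with 1.07 ± 0.23 on the log2 scale. The distributions of each isoform overlapped at their edges between the runs, and the highest library of all 3 in the last run was a control. *Pcdhac1* differed by 1.06 ± 0.34 and *Pcdhgc5* by 0.91 ± 0.23 on the log2 scale (SE).

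Of the alternate alpha isoforms, *Pcdha1* (1.75 ± 0.51), *Pcdha7* (1.52 ± 0.30) and *Pcdha6* (1.33 ± 0.35) had the largest log2 fold changes (SE), and all 11 alpha members were above 0. *Pcdha1* rests on few reads, with 0 to 20 counts per library. *Pcdha2* (1.27 ± 0.31), *Pcdha9* (1.25 ± 0.33), the *Pcdha11* with identifier ENSMUSG00000007440 (1.22 ± 0.20) and *Pcdha12* (1.11 ± 0.30) were called too. In the gamma cluster the further called members were the B-type *Pcdhgb6* (1.08 ± 0.20) and the A-types *Pcdhga6* (1.06 ± 0.21) and *Pcdhga7* (1.04 ± 0.20). *Pcdhga6* had a median of 1.15 CPM in the first run (0.518 to 3.61) and 2.94 CPM in the last (1.23 to 6.01).

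The most abundant A-type and B-type gamma isoforms differed little, with *Pcdhga4* at 0.07 ± 0.11 and *Pcdhgb2* at 0.02 ± 0.12 on the log2 scale, and *Pcdhga12*, the last A-type gene before the C-type genes, was lower in the last run (-0.36 ± 0.15). Beta members split evenly by sign, 11 above and 10 below 0. The extremes of the beta cluster were *Pcdhb2* (0.86 ± 0.32) and *Pcdhb21* (0.83 ± 0.22) on the higher side and *Pcdhb8* (-0.31 ± 0.13) and *Pcdhb9* (-0.30 ± 0.13) on the lower side. In gene span, the members over 100 kb had a median log2 fold change of 0.88 (22 alpha and gamma members) and the other 2350 genes of that span 0.14. The 16 members of up to 5 kb, all beta, had a median of -0.02 and the other 3927 short genes -0.17.

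**Figure D3:**
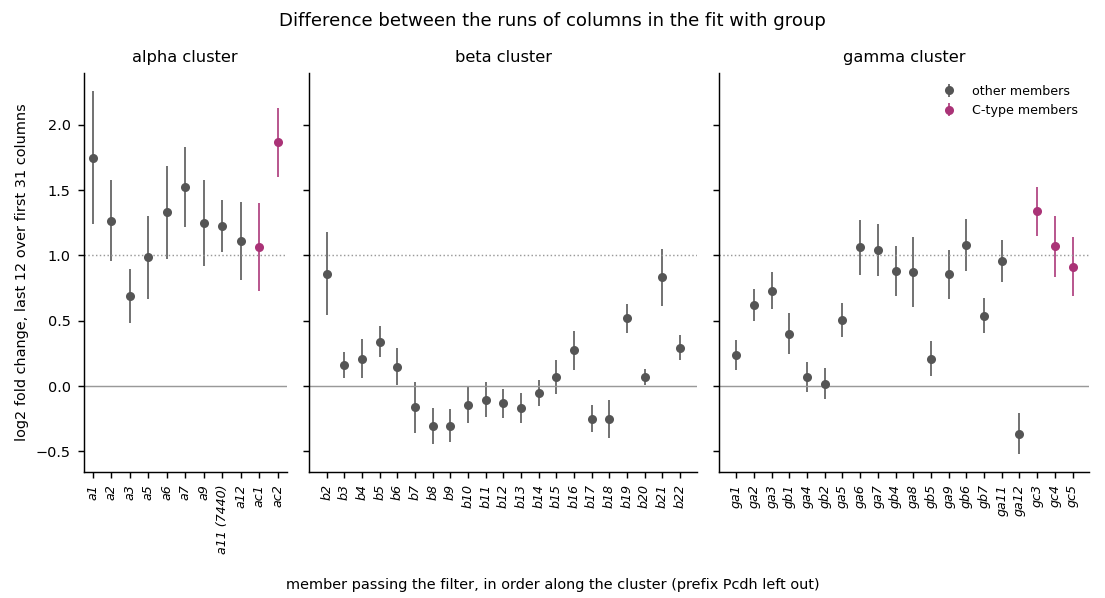
Log2 fold change of the last over the first run of columns (vertical axis) for the 52 members tested, in order along the clusters (horizontal axis); bars are standard errors of the edgeR fit with group, C-type members are in purple, and the dotted line marks a log2 fold change of 1. Alpha members lie between 0.69 and 1.86, most gamma members above 0 with *Pcdhga4*, *Pcdhgb2* and *Pcdhga12* near or below it, and beta members scatter around 0.

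The relation between the clusters across libraries was described within runs, and within the last run only over its 8 SCFA libraries, because controls and SCFA libraries of that run formed separate groups. In these 8 libraries, the alpha and gamma sums correlated with Pearson r = 0.869 and Spearman rho = 0.905, and r = 0.80 without the 2 libraries farthest from the median alpha sum. Alpha and beta correlated with r = 0.277 (rho = 0.310; r = 0.371 without 2 libraries). In the 31 libraries of the first run, alpha and gamma correlated with r = 0.182 (rho = 0.225; r = 0.219 without 2 libraries) and alpha and beta with r = 0.05 (rho = 0.0141). These are descriptions without p-values, 9 relations in each set of libraries, and the points share the scaling of a library and its depth.

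The share of mitochondrial mRNAs ran opposite to the alpha sum in both sets. In the first run r was -0.497 and rho -0.640 (r = -0.622 without 2 libraries), and in the SCFA libraries of the last run r was -0.815 and rho -0.690 (r = -0.525 without 2 libraries). For gamma, r was 0.0060 in the first run and -0.560 in those 8 libraries. For beta, r was 0.593 in the first run and 0.223 without 2 libraries, so that this relation rests on those libraries, and in the 8 SCFA libraries of the last run r had the opposite sign (-0.688, rho = -0.690; r = -0.319 without 2 libraries). The summed CPM of 8 nuclear long RNAs, genes whose transcripts stay in the nucleus, overlapped between the runs (median 1378 against 1496 CPM), and correlated with the alpha sum with r = -0.508 in the first run (rho = -0.342; r = -0.372 without 2 libraries). With gamma, r was 0.424 there (rho = 0.408; 0.392 without 2 libraries) and with beta -0.401 (rho = -0.470; -0.347 without 2 libraries). In the 8 SCFA libraries of the last run, the nuclear long RNAs correlated with beta with r = -0.791 (rho = -0.881; -0.739 without 2 libraries), with alpha with r = -0.321 (rho = -0.357; 0.107 without 2 libraries) and with gamma with r = -0.0723 (rho = -0.119; 0.158 without 2 libraries).

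**Figure D4:**
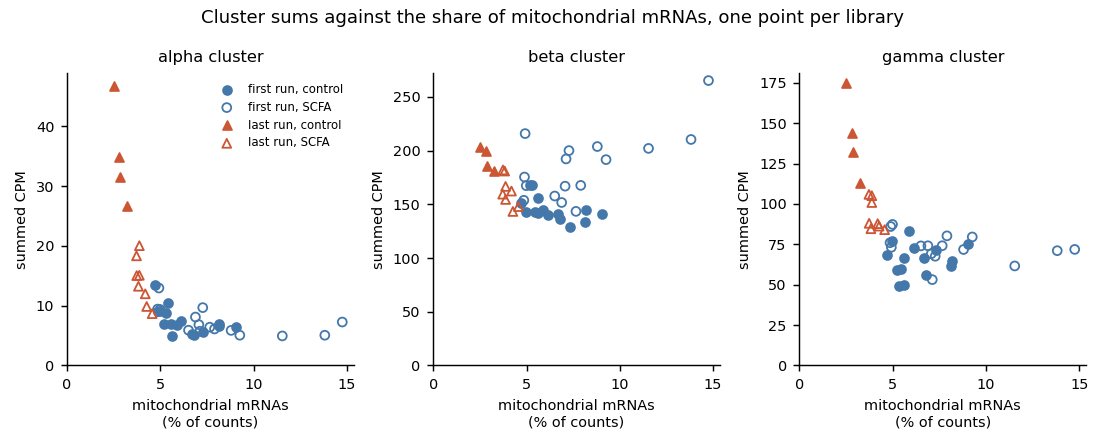
Summed CPM of the alpha, beta and gamma members (vertical axes) against the share of mitochondrial mRNAs in percent of the counts (horizontal axes), 1 point per library; circles are the first run, triangles the last, and filled symbols are controls, open symbols SCFA. The 4 filled triangles lie at the lowest mitochondrial shares, 2.50% to 3.24%, and at the highest alpha and gamma sums.

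The comparison of SCFA with control in females at 14 dpl, for which the study lists members of all 3 clusters, depended on which libraries were set against each other. The study's libraries for it are control replicates 2 and 3, of the last run, and SCFA replicates 1, 2 and 3, of the first, so a difference by run cannot be told apart from one by treatment. In these libraries the alpha sum was 46.8 and 26.6 CPM in the controls and 5.72, 8.98 and 9.36 CPM under SCFA. In the remaining libraries, control replicate 1 of the first run had 6.52 CPM and SCFA replicate 4 of the last run 18.3 CPM. The first-run control thus lay among the first-run SCFA libraries, and the last-run SCFA library between these and the last-run controls.

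With the study's libraries and no run term, edgeR called 22 of 52 members, all lower under SCFA, where 3.89% of 16742 genes were called. These were 10 of 11 alpha, 2 of 21 beta and 10 of 20 gamma members, with *Pcdha9* (-3.08), *Pcdhac2* (-2.51), *Pcdha1* (-2.48), *Pcdha7* (-2.45) and *Pcdha2* (-2.45) at the lowest log2 fold changes. With all libraries and run as a term, which takes the shift between the runs as equal in every group, 0 members were called. DESeq2 called 0 too, and edgeR called 0.0% of 18628 genes. The median log2 fold change of the alpha members was then -0.73 and that of the gamma members -0.24, against -2.32 and -1.05 with the study's libraries. All 11 alpha members were also below 0 with run as a term, from -0.38 (*Pcdhac2*) to -1.21 (*Pcdha9*), and the largest changes in the other clusters were those of *Pcdhb2* (-0.87 ± 0.58) and *Pcdhga6* (-0.71 ± 0.40).

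Within the last run alone, which sets 2 controls against 1 SCFA library assumed to vary like the other groups, all 12 alpha members tested were below 0, with a median of -0.99, and 0 of 53 members were called where 0.0% of genes were. Within the first run alone, which sets 1 control assumed to vary likewise against 3 SCFA libraries, 7 of 11 alpha members were above 0 (median 0.07) and 20 of 21 beta members were above 0. *Pcdhac2* is an example: its log2 fold change was -2.51 in the study's libraries, -0.38 with run as a term, -0.97 within the last run and 1.54 within the first. In CPM, it stood at 17.8 and 9.07 in the last-run controls, 6.79 in the last-run SCFA library, 0.80 in the first-run control and 1.69, 2.68 and 2.60 in the first-run SCFA libraries. Among the other C-type members, *Pcdhgc4* went from -1.69 to -0.43, *Pcdhgc3* from -1.18 to 0.20, *Pcdhgc5* from -1.45 to -0.27 and *Pcdhac1* from -1.93 to -0.76 when run was added, and *Pcdhga6* from -1.97 to -0.71.

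**Figure D5:**
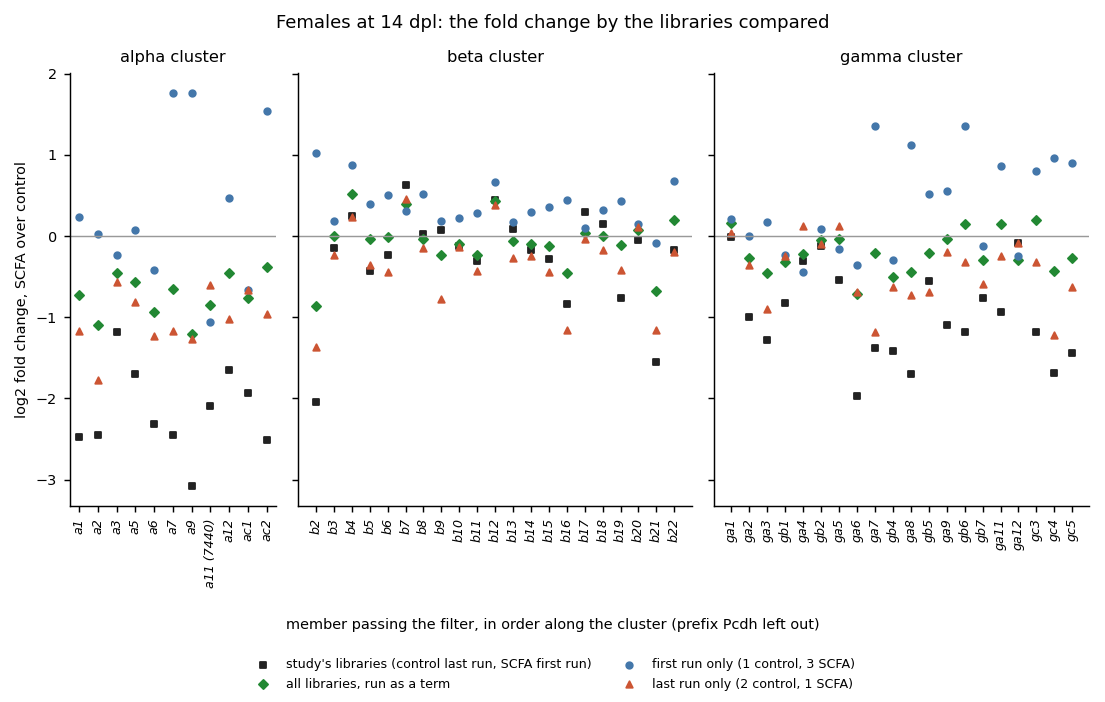
Log2 fold change of SCFA over control in females at 14 dpl (vertical axis) for each member tested (horizontal axis), with the study's libraries (squares), with all libraries and run as a term (diamonds), within the first run (circles) and within the last run (triangles). For the alpha members the squares lie at -1.18 to -3.08 and the diamonds at -0.38 to -1.21, while the circles fall on both sides of 0; among the beta members *Pcdhb2* has the lowest square, at -2.05.

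In males at 7 dpl, the other contrast for which the study names members, the beta isoforms *Pcdhb7* and *Pcdhb8* were the only members called with run as a term, both higher under SCFA, which is 2 of 52 where 3.52% of genes were called. *Pcdhb8* stood at 5.87, 4.80 and 5.38 CPM in the 3 controls and at 11, 6.10, 19.6, 7.12 and 7.94 CPM in the 5 SCFA libraries, so that every SCFA library was above every control. *Pcdhb7* stood at 2.34, 3.45 and 3.41 CPM in the controls and at 8.19, 4.91, 10.9, 4.39 and 6.22 CPM under SCFA, again without overlap. The log2 fold changes were 1.04 ± 0.25 and 1.22 ± 0.38 (SE). Both values were highest in SCFA replicate 3, which also had the highest mitochondrial share of all libraries (14.75%), and without it 0 members were called and the log2 fold changes were 0.68 and 0.99.

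The genes that the study names for males at 7 dpl, *Pcdhga6*, *Pcdhac2* and *Pcdhgc4*, gave 0.25 ± 0.41, -0.42 ± 0.50 and 0.53 ± 0.44 on the log2 scale (SE) with all libraries and run as a term. The study's libraries are the 3 controls and SCFA replicate 2, all of the first run, and SCFA replicates 4 and 5 of the last run. With these and no run term, the same genes gave 1.15, 1.19 and 1.22, and edgeR called 4 of 46 members, all higher, where 1.54% of 16322 genes were called. *Pcdhac2* stood at 2.23, 2.26 and 1.49 CPM in the controls, at 0.640, 1.99 and 1.52 CPM in the first-run SCFA libraries and at 6.51 and 5.10 CPM in the last-run SCFA libraries. The higher values were thus those of the last run. *Pcdhgc3* gave 0.03 ± 0.34, *Pcdhgc5* 0.06 ± 0.43 and *Pcdhac1* 0.44 ± 0.67 with run as a term. By cluster, the medians were 0.19 for alpha, 0.39 for beta and -0.21 for gamma, beside -0.03 for all genes.

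The contrasts that the study does not link to the family were tested. Counts of members at an unadjusted p under 0.05, here and below, have no share of all genes at that limit beside them. The shares printed are those of the rule for calls, and nothing is read from these counts. In males at 3 dpl, edgeR called 0 of 52 members with run as a term (7 at an unadjusted p under 0.05; 0 called by DESeq2), where 0.0215% of genes were called. All 11 alpha members were below 0 (median -0.62), as were 16 of 21 beta (median -0.22) and 17 of 20 gamma members (median -0.26). The lowest unadjusted p in each cluster belonged to *Pcdhac1* (log2 fold change -1.62 ± 0.65, adjusted p = 0.310), *Pcdhb13* (-0.51 ± 0.21, adjusted p = 0.332) and *Pcdhga5* (-0.64 ± 0.25, adjusted p = 0.297; edgeR with Benjamini-Hochberg adjustment). *Pcdhac2* gave -0.92 ± 0.47, *Pcdhgc3* -0.35 ± 0.34, *Pcdhgc4* -0.87 ± 0.42, *Pcdhgc5* -0.58 ± 0.41 and *Pcdhga6* -0.63 ± 0.40, none of them called.

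Males at 3 dpl also hold 2 controls and 2 SCFA libraries of the last run. This comparison within the run was added after these controls had been seen to be among the libraries with the highest alpha sums, so it restates that observation and is given without p-values. There, edgeR called 7 of 53 members, all lower under SCFA, where 0.857% of 18087 genes were called. They were the alpha isoforms *Pcdha6* (-1.83 ± 0.49), *Pcdha7* (-1.62 ± 0.47), *Pcdha9* (-1.59 ± 0.35) and *Pcdhac2* (-1.27 ± 0.37), and the gamma isoforms *Pcdhgc4* (-1.36 ± 0.28), *Pcdhga8* (-1.36 ± 0.37) and *Pcdhgc5* (-1.08 ± 0.34). In these 4 libraries *Pcdhgc4* stood at 14.7 and 17.5 CPM in the controls and at 7.68 and 4.85 CPM under SCFA, without overlap. *Pcdhac2* stood at 11.4 and 13.4 CPM against 7.48 and 2.78 CPM. Mitochondrial mRNAs took 2.86% and 2.81% of the counts in these controls and 3.88% and 4.27% under SCFA, and their part in the difference was not tested.

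In the first run the same comparison has 2 controls and 1 SCFA library. The gamma sum was 71.2 and 61.7 CPM in these controls and 69.2 CPM under SCFA, and *Pcdhgc4* 2.65 and 2.94 CPM against 2.78 CPM. Within the first run edgeR called 0 of 52 members (5 at an unadjusted p under 0.05; DESeq2 was not run on these libraries alone), where 0.0% of genes were called, and 6 of 11 alpha and 16 of 21 beta members lay above 0. Whether the response differs between the runs was not tested.

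In females at 3 dpl, *Pcdhgc4* was the member called, 1 of 52 where 2.39% of genes were called. It stood at 4.29, 1.66 and 1.88 CPM in the 3 controls, at 7.24, 11.3 and 5.95 CPM in the first-run SCFA libraries and at 8.92 and 6.82 CPM in the last-run ones, so that every SCFA library was above every control. Its log2 fold change was 1.23 ± 0.44 with an adjusted p of 0.0894 (edgeR). Without SCFA replicate 1, 2 or 3, control replicate 2 or 3, or either of 2 last-run SCFA libraries of other groups (F 14 dpl replicate 4, M 7 dpl replicate 4), 0 members were called, with log2 fold changes of *Pcdhgc4* between 0.88 and 1.25. The other C-type members gave 0.16 ± 0.70 (*Pcdhac1*), 0.44 ± 0.51 (*Pcdhac2*), 0.40 ± 0.35 (*Pcdhgc3*) and 1.05 ± 0.50 (*Pcdhgc5*), and *Pcdhga6* gave 0.60 ± 0.41, all with adjusted p from 0.196 to 0.923 (edgeR).

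Within the first run, the same comparison in females (3 against 3 libraries) called 4 members, all higher under SCFA, where 5.47% of 19293 genes were called. They were *Pcdhgc4* (1.62 ± 0.37, adjusted p = 0.00652), *Pcdhgc5* (1.49 ± 0.50, adjusted p = 0.0471), *Pcdhb7* (1.08 ± 0.34, adjusted p = 0.0366) and *Pcdha6* (1.95 ± 0.72, adjusted p = 0.0721; edgeR). The beta sum stood at 200, 202 and 216 CPM under SCFA and at 141, 156 and 168 CPM in the controls, without overlap. With run as a term 18 of 21 beta members were above 0 (median 0.23), among which *Pcdhb14* had the lowest adjusted p at a fold change under the limit (0.56 ± 0.19, adjusted p = 0.0692; edgeR). Markers of other cells moved with this group. Summed over 6 Müller glia markers, the first-run SCFA libraries held 6748 to 7747 CPM and the controls 3974 to 4747 CPM, although none of the 6 was called. SCFA replicate 2 held 199378 CPM of 4 lens crystallins, the other SCFA libraries 12.9 to 592 CPM and the controls 1.64 to 350 CPM. With run as a term, where 2.39% of all genes were called, all 4 lens markers (*Cryaa*, *Crybb2*, *Cryba1*, *Crygs*) were called higher, with log2 fold changes from 8.11 (*Crybb2*) to 8.99 (*Cryba1*). Of 6 pigment epithelium markers, *Rpe65* (1.37), *Tyrp1* (1.63) and *Tyr* (1.48) were called higher, as was 1 of 8 oligodendrocyte markers, *Mobp* (5.33), and 2 of 8 nuclear long RNAs, *Meg3* (-1.18) and *Miat* (-1.34), were called lower. Their part in the protocadherin values was not tested.

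In females at 7 dpl, 0 of 52 members were called (5 at an unadjusted p under 0.05; 0 called by DESeq2), where 0.0% of genes were called. This contrast sets only control replicates 1 and 3, of the first run, against 3 SCFA libraries of the first run and 1 of the last. Of the beta members, 18 of 21 were above 0 with a median of 0.44, and *Pcdhb12* had the lowest unadjusted p (0.72 ± 0.24, adjusted p = 0.476; edgeR). The alpha median was -0.15 and the gamma median 0.09. The lowest p in the other clusters belonged to *Pcdha5* (1.65 ± 0.89, adjusted p = 0.593) and *Pcdhga7* (0.83 ± 0.45, adjusted p = 0.594; edgeR). The C-type members lay between -0.36 ± 0.86 (*Pcdhac1*) and 0.53 ± 0.43 (*Pcdhgc3*), with *Pcdhac2* at -0.09 ± 0.62, *Pcdhgc4* at 0.08 ± 0.51 and *Pcdhgc5* at 0.02 ± 0.51, and *Pcdhga6* was at -0.10 ± 0.50.

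In males at 14 dpl, where all libraries are of the first run, 0 of 52 members were called (5 at an unadjusted p under 0.05; 0 called by DESeq2), where 1.59% of genes were called. The alpha sum was 9.08, 10.4 and 13.4 CPM in the controls and 5.89, 6.10 and 9.43 CPM under SCFA, which overlapped, and all 11 alpha members tested were below 0 with a median of -0.59. The *Pcdha11* with identifier ENSMUSG00000007440 had the lowest alpha p (-0.96 ± 0.45, adjusted p = 0.192), *Pcdhb8* the lowest beta p (0.57 ± 0.27, adjusted p = 0.211) and *Pcdhga1* the lowest gamma p (0.65 ± 0.24, adjusted p = 0.0874; edgeR). *Pcdhga1* is thus past the adjusted p but under the limit on the fold change. It stood at 4.56, 3.89 and 4.57 CPM in the controls and at 7.20, 5.71 and 7.52 CPM under SCFA, without overlap. The C-type members all lay below 0, from -0.38 ± 0.47 (*Pcdhgc5*) to -0.94 ± 0.80 (*Pcdhac1*), with *Pcdhac2* at -0.59 ± 0.53, *Pcdhgc3* at -0.51 ± 0.37 and *Pcdhgc4* at -0.53 ± 0.47, and *Pcdhga6* was at -0.20 ± 0.45. Of the 18 other lists, the 1 gene called in this contrast was the pigment epithelium marker *Rpe65* (-1.60 ± 0.56), and its part in these values was not tested.

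Between the sexes in lasered controls, 0 of 52 members were called at 3, 7 or 14 dpl, where 0.0376%, 0.0429% and 0.703% of genes were called (7, 2 and 5 members at an unadjusted p under 0.05; 0 called by DESeq2 at each day). The male controls at 7 dpl and the female controls at 14 dpl also belong to the contrasts that led to the choice. The p-values at these 2 days are therefore not independent of it. At 3 dpl, *Pcdhgc5* was the most different member, at 0.679, 0.343 and 0.182 CPM in the females and at 0.828 and 1.11 CPM in the first-run males and 3.58 and 3.72 CPM in the last-run males. Its log2 fold change of males over females was 1.85 ± 0.51 with an adjusted p of 0.654 (edgeR). The other clusters were led by *Pcdhb15* (0.82 ± 0.27, adjusted p = 0.777) and *Pcdha7* (1.40 ± 0.65, adjusted p = 0.844; edgeR). At 7 dpl *Pcdhga3* (0.82 ± 0.34, adjusted p = 0.644), *Pcdhb19* (0.59 ± 0.26, adjusted p = 0.662) and *Pcdha12* (0.93 ± 0.72, adjusted p = 0.798; edgeR) had the lowest p of their clusters. At 14 dpl these were *Pcdhb8* (-0.82 ± 0.29, adjusted p = 0.105), *Pcdhgb5* (-0.65 ± 0.29, adjusted p = 0.210) and the *Pcdha11* with identifier ENSMUSG00000007440 (-0.69 ± 0.41, adjusted p = 0.375; edgeR).

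The remaining C-type members were not called at any day. At 3 dpl *Pcdhac1* gave 1.05 ± 0.70, *Pcdhac2* 0.79 ± 0.53, *Pcdhgc3* 0.43 ± 0.37 and *Pcdhgc4* 1.03 ± 0.47, so that all 5 estimates were above 0. Of the controls at 3 dpl, 2 of the 4 male libraries and 0 of the 3 female ones are of the last run. These estimates therefore rest on a run shift taken as equal in every group, and no direction by sex is read from them. At 7 dpl the C-type members lay between -0.07 ± 0.54 (*Pcdhgc4*) and 0.62 ± 0.45 (*Pcdhgc3*), and at 14 dpl between -0.65 ± 0.49 (*Pcdhgc4*) and 0.25 ± 0.39 (*Pcdhgc3*). *Pcdhga6* gave 0.30 ± 0.44, 0.19 ± 0.52 and -0.57 ± 0.46 at the 3 days.

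The time course in controls, taken as the mean of the female and the male contrast, also gave 0 called members. For 7 over 3 dpl, 6 members had an unadjusted p under 0.05 and DESeq2 called 0, where 0.0% of genes were called, with *Pcdhb3* (-0.49 ± 0.16, adjusted p = 0.556), *Pcdha5* (-1.35 ± 0.58, adjusted p = 0.589) and *Pcdhga4* (0.39 ± 0.17, adjusted p = 0.589; edgeR) lowest in their clusters. The male controls at 7 dpl used here also belong to a contrast that led to the choice, so these p-values are not independent of it. The contrast of 14 over 7 dpl uses control groups of both contrasts that led to the choice, so its p-values are not independent of it. Here 14 members had an unadjusted p under 0.05, a count with no share of all genes beside it at that limit. By the rule for calls, 0.0% of all genes were called, and DESeq2 called 1 member, *Pcdhb2*. All 11 alpha members were above 0 there (median 1.15), led by the *Pcdha11* with identifier ENSMUSG00000007440 (1.15 ± 0.33, adjusted p = 0.199). *Pcdhb2* gave 1.97 ± 0.59 (adjusted p = 0.199) and *Pcdhgc3* 0.76 ± 0.30 (adjusted p = 0.281; edgeR). The C-type members lay between 0.63 ± 0.37 (*Pcdhgc5*) and 0.84 ± 0.42 (*Pcdhac2*) for 14 over 7 dpl and between -0.45 ± 0.57 (*Pcdhac1*) and 0.23 ± 0.37 (*Pcdhgc5*) for 7 over 3 dpl. Without female control replicate 1 at 14 dpl, the only first-run library of its group, 3 members were called for 14 over 7 dpl.

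The response to SCFA was compared between the sexes as an interaction, males minus females. At 3 dpl, 0 of 52 members were called by edgeR, where 0.0% of genes were called. An unadjusted p under 0.05 was reached by 12 members, a count with no share of all genes beside it at that limit. *Pcdhgc4* had the lowest p (-2.10 ± 0.61, adjusted p = 0.192; edgeR), and it was the 1 member called by DESeq2. In the other clusters *Pcdhb15* (-0.90 ± 0.36, adjusted p = 0.256) and *Pcdha6* (-2.24 ± 0.98, adjusted p = 0.296; edgeR) were lowest in p. *Pcdhgc5* gave -1.63 ± 0.65, *Pcdhac1* -1.78 ± 0.95, *Pcdhac2* -1.36 ± 0.69, *Pcdhgc3* -0.75 ± 0.48 and *Pcdhga6* -1.23 ± 0.57, all below 0 and none called. This interaction holds the 2 last-run male controls described above for their high alpha sums, while 0 of the 3 female controls at 3 dpl are of that run. It takes the run shift as equal in every group. Its p-values and calls are therefore a description, and no difference between the sexes is read from them. At 7 dpl, 0 members were called (5 at an unadjusted p under 0.05; 0 by DESeq2), where 0.0161% of genes were called, and at 14 dpl 0 members were called (0 at an unadjusted p under 0.05; 0 by DESeq2), where 0.0% of genes were called. The interactions at 7 and 14 dpl each contain a contrast named by the study, so these counts are a description. The largest were *Pcdhb2* at 7 dpl (-1.96) and *Pcdhga12* at 14 dpl (0.84).

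Genes around the family were followed as lists. Of 22 regulators of the clusters (CTCF, cohesin, its loader, and chromatin and DNA methylation factors), 0 were called between the runs (median log2 fold change 0.08) and 1 in males at 7 dpl, where 3.52% of all genes were called: *Tet1*, an enzyme that oxidizes methylated cytosine (1.05 ± 0.24, adjusted p = 0.00224; edgeR). Of 13 non-clustered protocadherins, which have their own loci, 12 were tested and 0 were called between the runs (median 0.22), while *Pcdh11x* (1.12 ± 0.25, adjusted p = 0.00187) and *Pcdh20* (1.13 ± 0.35, adjusted p = 0.0229; edgeR) were higher in males at 7 dpl. Their summed CPM ranged from 842 to 1497 in the first run and from 1405 to 1975 in the last. Of 16 intracellular partners, among them the focal adhesion kinase *Ptk2* and the WAVE complex, 0 were called between the runs (median 0.12) or in any contrast. Of 22 other self-recognition and adhesion molecules, *Tenm1*, a teneurin, was called between the runs (1.49 ± 0.23) and *Cntn1*, a contactin, in males at 7 dpl (1.27 ± 0.22, adjusted p = 2.92e-04; edgeR).

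Markers of cell types were set beside the difference between the runs, for which 5.1% of all genes were called. Of 8 ganglion cell markers 0 were called (median 0.14) and of 7 amacrine cell markers 1, the glycine transporter *Slc6a9* (1.22 ± 0.16). Of 4 horizontal cell markers *Onecut1* was called higher (1.002 ± 0.37), at a mean of 0.419 CPM, close to the floor. Summed, the horizontal cell markers had medians of 87.5 CPM in the first run and 79.8 CPM in the last. Of the other lists, 0 of 7 bipolar cell, 0 of 7 rod, 0 of 6 cone, 0 of 6 Müller glia, 0 of 3 astrocyte, 0 of 5 endothelial and 0 of 4 lens markers were called. Lower in the last run were 1 of 8 microglia markers, *Aif1* (-1.10), the oligodendrocyte markers *Mobp* (-4.76), *Bcas1* (-4.22) and *Cldn11* (-1.13), and 3 of 6 pigment epithelium markers, *Mlana* (-1.38), *Rpe65* (-1.28) and *Tyr* (-1.11). Their part in the difference of the protocadherins was not tested.

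Within the last run, 5 of the 18 lists separated the 4 controls from the 8 SCFA libraries in the same direction as the alpha and gamma sums. The summed amacrine markers were at 524 to 627 CPM in the controls and 287 to 509 CPM under SCFA, and the regulators at 2792 to 2833 CPM and 2408 to 2730 CPM. The non-clustered protocadherins were at 1917 to 1975 CPM and 1405 to 1836 CPM, the intracellular partners at 1469 to 1629 CPM and 1160 to 1438 CPM, and the other self-recognition and adhesion molecules at 1106 to 1377 CPM and 935 to 1061 CPM. Cone markers separated the opposite way, at 1232 to 1601 CPM in the controls and 1668 to 2045 CPM under SCFA, and the remaining 12 lists overlapped. Their part in the alpha and gamma values was not tested.

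In males at 7 dpl, where 3.52% of all genes were called, 2 of 6 Müller glia markers were called higher, *Glul* (1.02 ± 0.19) and *Sox9* (1.10 ± 0.24), and 2 of 6 pigment epithelium markers lower, *Pmel* (-1.52 ± 0.60) and *Mlana* (-1.78 ± 0.63). Summed Müller glia markers were highest in the same SCFA replicate 3 that had the highest *Pcdhb7* and *Pcdhb8*, and their part in those values was not tested.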

How the data were processed

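The authors deposited raw counts of reads per gene, 1 column per library, for 43 libraries of bulk retina RNA, and the submitters' processing notes name mm10 and DESeq2. The aligner, the counting tool and the strand setting are not given in the sources used here. Groups were taken from the titles. Gene identifiers were matched to GENCODE M21 on GRCm38 (54495 of 54532). The members and the lists were chosen with earlier results of these data known.

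Counts were tested with edgeR 4.0.16 (quasi-likelihood test, TMM library sizes, filterByExpr, 18628 genes) in R 4.3.3, with group and run of columns as terms over 42 libraries and 29 residual degrees of freedom. Calls needed a Benjamini-Hochberg adjusted p under 0.1 together with a log2 fold change beyond 1 in either direction. The alternatives were DESeq2 1.42.0, other scalings, filters and thresholds, each run alone, a replicate block and leaving out each library. The fit was tested on simulated data. edgeR loads limma 3.58.1. Tables and plots were made with Python 3.11.15, numpy 2.4.6, pandas 2.3.3, scipy 1.17.1 and matplotlib 3.10.9. Libraries are separate pools of retinas, and no pair of a group agreed within sampling noise (lowest chi-square per degree of freedom 3.59).

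Genes named in the text are the 5 C-type members in every comparison (as ranges with their end members where none was called), the 3 highest and the lowest member per kb in each cluster, *Pcdhga6*, members called (the 10 largest where over 10), the member with the lowest p in each cluster where none was called (the largest change where no p is given), and called genes of the other lists, at most 5 per list. Members printed beyond these were chosen after their values were seen.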

Additional observations from a re-analysis of the deposited data

How the results depend on the processing

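Counts of called members in males at 3 and 7 dpl and in females at 3 and 14 dpl depended on the libraries used. Under changed settings, the share of all genes called is given above only for single runs and for the study's libraries of males at 7 dpl and females at 14 dpl. The other counts below have no such share beside them, so they are a description and no excess of members is read from them. In females at 3 dpl, where 1 member was called, the count was 4 within the first run, 2 without the fold threshold, and 0 at an adjusted p under 0.05 or without the run term. In males at 3 dpl it was 7 within the last run, an alternative chosen after the data had been seen, against 0. In males at 7 dpl (2 called) it was 11 without the fold threshold, 1 without the run term and 4 in the study's libraries. In females at 14 dpl (0 called) it was 22 in the study's libraries, and in males at 14 dpl (0 called) it was 1 without the fold threshold and 1 in the study's libraries. Without the filter on low counts, 2 members were called between the sexes at 3 dpl, 2 for 14 over 7 dpl and 3 in the interaction at 3 dpl, each against 0, and DESeq2 called 1 for 14 over 7 dpl and 1 in the interaction at 3 dpl. Between the runs, 14 members were called, 36 without the fold threshold and 5 of 36 tested with at least 10 counts in every library, which tests fewer genes. For the other changes the cause was not tested. With the replicate number as a block, 2 members (*Pcdhgc4*, *Pcdhga7*) were called in the interaction at 3 dpl against 0, and the block moved no other count by more than 1.5 times. The numbers do not pair the samples: the deviations of 170 same-numbered pairs had a mean r of 0.0105, with 21 over 0.1, and those of 486 other pairs -0.0037. No count of called members moved by over 1.5 times with RLE size factors or with female control replicate 2 at 7 dpl included. Leaving out each of the 42 libraries in turn gave 0 to 2 members in females at 3 dpl, 0 to 3 in males at 7 dpl, 0 to 1 in males at 14 dpl (1 without SCFA replicate 2), 0 to 1 in the interaction at 3 dpl, 0 to 3 for 14 over 7 dpl and 9 to 16 between the runs (9 without female control replicate 1 at 14 dpl or male control replicate 1 at 3 dpl), and 0 to 0 for the other comparisons. In the interaction, the 1 call came without female control replicate 1, male control replicate 1 or female SCFA replicate 4 at 3 dpl. The log2 fold change of *Pcdhgc4* in females at 3 dpl ranged from 0.88 to 1.80 over these fits. The ratios of the cluster sums between the runs kept their direction on unscaled library totals and as a mean log2 level. Depth limits the alpha members, of which 2 of 14 exceeded 3 counts in every library. The run of columns holds controls of 2 groups only in its last part, so that treatment, group and run are unevenly crossed.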
